A study of Populus deltoides x Populus x canadensis with 6 samples.

Results

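The genes described here are the 211 rows of the poplar gene table whose identifier begins with Potri.T, out of 35792 rows in all. They were chosen by that identifier alone, with no measured value. In the naming of this gene set, Potri is followed by a chromosome number for genes on the 19 chromosomes and by T for genes on scaffolds, the pieces of a genome assembly that were joined to no chromosome. Another 34488 rows carry a chromosome number, and 1093 rows stand outside the Potri numbering. Identifiers are printed without their version suffix, .v4.1.

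RNA of the stem was sequenced from the hybrid poplar Nanlin 895 in 6 libraries. The 3 mutant libraries came from a line whose genotype is given as pdbri1-1;2;3;6, that is, mutant in 4 members of the BRI1 family, and the 3 wild type libraries from WT plants of the same strain. All plants were 45 days old and had 16 h of light and 8 h of dark in a greenhouse. Each library held the bottom 2 cm of the stem, freed of leaves, from 30 pooled plants, so a library is a pool and plants within it cannot be told apart. Neither how the mutations were made nor whether the mutant line is 1 clone is given in the sources used here. Gene names are not paired with identifiers in the table, so neither the genotype nor the tissue was checked against marker genes, and no role is given for any gene below.

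BRI1 is the receptor kinase at the cell surface that binds brassinosteroids, the steroid hormones of plants. Its signal acts through transcription factors on cell elongation, cell division and the formation of wood and phloem in the stem. Scaffolds that stay outside the chromosomes of an assembly are often rich in repeats, in recently copied genes or in a second version of a region that is already present on a chromosome. Reads from near-identical copies can be counted for one copy or another, so levels of such genes depend on the counting rule. That rule is not given in the sources used here, and levels of members with a near-identical copy are uncertain.

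Of the 211 scaffold genes, 133 (63.0%) had enough counts to be tested, against 76.5% of all rows. Among the other 78, 30 had no count in any library (14.2% of the scaffold genes, against 7.84% of all rows) and 48 had counts too low for the test. Their lengths, known for 181 rows, ran between 213 and 7357 bp with a median of 2166 bp, against a median of 1708 bp over all rows. The symbol column was empty for 90 of them (42.7%), against 13.6% of all rows. Tested scaffold genes had a median level of 7.03 CPM, a count scaled to library size with TMM factors, and 3.09 FPKM, against 15.7 CPM and 8.49 FPKM for all tested genes.

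Library totals were 20756647, 17752822 and 18351005 counts in the mutant and 17954948, 20442247 and 21096052 counts in the wild type. Scaffold genes took 0.324%, 0.322% and 0.326% of the counts in mutant libraries and 0.297%, 0.295% and 0.296% in wild type libraries, which did not overlap. The mean share was 0.324% ± 0.0021 in the mutant and 0.296% ± 0.0011 in the wild type (SD, n = 3 each). A two-sided exact permutation test gave p = 0.1, the smallest that 3 against 3 libraries allow. Set against library sizes corrected by TMM, the shares were 0.311% ± 0.0020 in the mutant and 0.309% ± 0.0016 in the wild type (exact p = 0.4), a difference of 0.00146 percentage points against 0.0278 with the totals as they are. The number of scaffold genes with at least 1 count was 160 ± 3.61 in mutant and 158 ± 1.15 in wild type libraries (exact p = 0.5).

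In the mutant, 41 scaffold genes rose and 21 fell. These 62 genes are 46.6% of those tested, while 64.1% of all tested genes passed the same threshold. Calls rest on an adjusted p under 0.05 by the quasi-likelihood test of edgeR, with p-values adjusted over all 27382 tested genes after Benjamini and Hochberg. Higher calls made up 30.8% of the tested scaffold genes, against 33.1% of all tested genes, and lower calls 15.8%, against 31.0%. The other 71 were not called, and 64 had an unadjusted p under 0.05. The difference between these shares was not tested.

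The split between rises and falls moved with the scaling. With TMM factors 66.1% of the scaffold calls were higher in the mutant (51.6% of all calls). With library totals alone 52 scaffold genes were higher and 13 lower, so that 80.0% of the calls were higher (66.8% of all calls), and the median change of all genes stood at 0.13 (log2) in place of 0.01. Changes below are log2 fold changes of mutant over wild type with TMM factors. Their median was 0.07 for scaffold genes, with quartiles at -0.21 and 0.48, against 0.01 with quartiles at -0.26 and 0.42 for all tested genes. With library totals the scaffold median was 0.20.

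Most large changes among scaffold genes were rises. A rise of at least 2-fold was called for 20 genes, 15.04% of those tested (13.5% of all tested genes), and a fall of at least 2-fold for 1 gene, 0.752% of those tested (5.19% of all tested genes). Of the 20 rises, 9 were at least 4-fold, and no fall was. A further 7 rises and 5 falls lay between 1.5-fold and 2-fold, and 14 rises and 15 falls below 1.5-fold. Tested against a 2-fold change in place of no change, 11 of the rises and the 1 fall still passed. Without wild type replicate 2 the falls of at least 2-fold numbered 4, and without wild type replicate 1 they numbered 3. The genes that join Potri.T012400 are Potri.T124304, Potri.T155180 and Potri.T124807 in the first case and Potri.T124404 and Potri.T001500 in the second, named here after their values were seen. In each of them the library left out was the lowest of the wild type. Without mutant replicate 1 there were 2 such falls, with Potri.T002968 added.

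**Figure D1:**
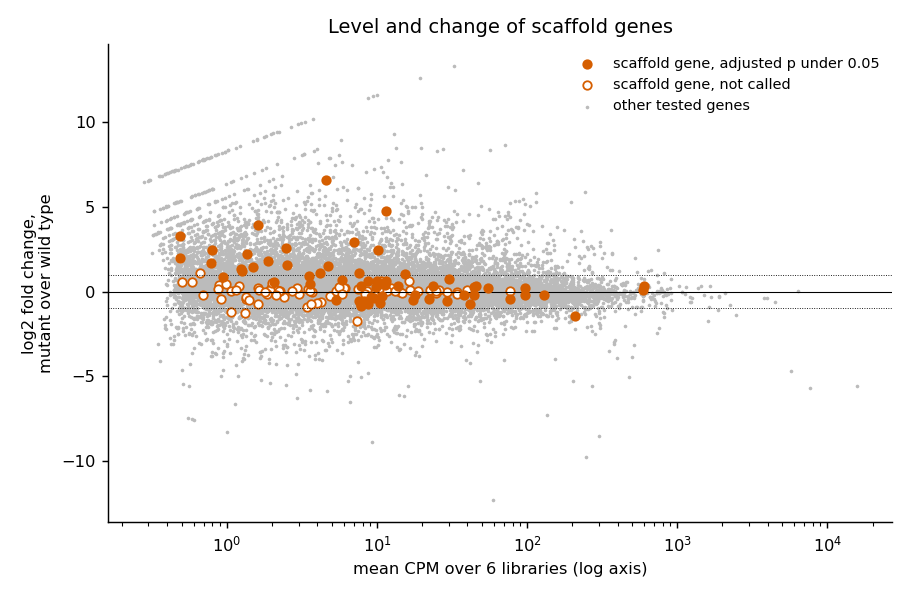
Each point is a tested gene, with the mean CPM over the 6 libraries on a log axis and the log2 fold change of mutant over wild type on the vertical axis. Filled orange points are the 62 called scaffold genes, open orange points the 71 not called, grey points the other tested genes, and dotted lines mark a 2-fold change. The called scaffold genes beyond 2-fold lie above the upper line, except Potri.T012400 below the lower one.

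The gene with the largest fold change was Potri.T124904, of 670 bp. It had 195, 147 and 196 counts in mutant libraries, against 4, 0 and 1 counts in wild type libraries. It was counted throughout the mutant and close to absent from the wild type. Corrected for library size, its summed count was 103 times higher in the mutant (95% exact interval 44.0 to 320, counting error only). Its mean level was 9.06 ± 1.15 CPM in the mutant and 0.0942 ± 0.123 CPM in the wild type (SD, n = 3 each), and the fitted log2 fold change was 6.59 (SE 0.19, adjusted p = 1.78e-23). The SE of this and the following log2 fold changes is that of the difference between group means of log2(CPM + 0.5). For genes near or below 0.5 CPM in the wild type, as here, the added 0.5 narrows it. It is then not the error of the fitted change. It also rests on 3 libraries of each genotype and can fall below counting error.

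Potri.T012600, of 1693 bp, had the smallest adjusted p of the scaffold genes. Its counts were 514, 389 and 408 in mutant libraries, against 16, 13 and 17 in wild type libraries. All mutant libraries stood far above all wild type libraries, and the replicates of each genotype lay close together. The level averaged 22.0 ± 1.43 CPM in the mutant and 0.812 ± 0.137 CPM in the wild type (SD, n = 3 each), a 27.1-fold rise (log2 fold change 4.76, SE 0.10, adjusted p = 6.51e-32).

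Potri.T011301, of 228 bp, had 54, 57 and 67 counts in mutant libraries, against 5, 3 and 3 counts in wild type libraries. It rose 15.1-fold (log2 fold change 3.92, SE 0.16, adjusted p = 8.56e-14). Potri.T077590 had 20, 11 and 22 counts in mutant libraries, against 0, 2 and 3 counts in wild type libraries, and rose 9.56-fold (log2 fold change 3.26, SE 0.21, adjusted p = 3.61e-06). Both genes are weakly counted in the wild type, so their folds rest on few counts.

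Potri.T005501, of 6159 bp, was the most even of the large rises. It had 12.3, 12.4 and 12.6 CPM in mutant libraries, against 1.63, 1.58 and 1.63 CPM in wild type libraries. The genotypes differed 7.67-fold, while replicates of a genotype differed by a few percent (log2 fold change 2.94, SE 0.02, adjusted p = 3.12e-23). Its wild type counts were 28, 31 and 33, so these replicates lay closer together than counting error alone would give. The SE of 0.02 therefore understates the error of the fold. Potri.T125004, of 3989 bp, had 18.0, 15.1 and 18.4 CPM in mutant libraries, against 2.97, 3.16 and 3.32 CPM in wild type libraries, and rose 5.43-fold (log2 fold change 2.44, SE 0.10, adjusted p = 1.65e-23). These genes were clearly counted in both genotypes.

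The other rises of at least 4-fold were weaker in count. Potri.T093108 had 4.28, 3.90 and 4.50 CPM in mutant libraries, against 0.757, 0.663 and 0.693 CPM in wild type libraries (log2 fold change 2.58, adjusted p = 1.86e-13). Potri.T171201 had 1.52, 1.19 and 1.31 CPM in mutant libraries, against 0.233, 0.306 and 0.198 CPM in wild type libraries (2.42, adjusted p = 8.45e-07). Potri.T011400 had 1.80, 2.92 and 1.99 CPM in mutant libraries, against 0.175, 0.867 and 0.347 CPM in wild type libraries (2.22, adjusted p = 3.69e-07). The wild type libraries of Potri.T011400 differed among themselves by more than those of the other 2, but all stayed below the mutant libraries.

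Between 2-fold and 4-fold, 11 scaffold genes rose. Potri.T124606, Potri.T011000, Potri.T085150, Potri.T124408 and Potri.T125304 had log2 fold changes of 1.97, 1.77, 1.66, 1.59 and 1.50. Those of Potri.T124144, Potri.T124806, Potri.T126004, Potri.T125108, Potri.T125404 and Potri.T002066 were 1.46, 1.34, 1.21, 1.10, 1.10 and 1.03. Adjusted p-values of the 11 ran between 1.13e-14 for Potri.T002066 and 0.000953 for Potri.T126004 (edgeR). Most of these genes were weakly expressed: Potri.T124606 had 15, 15 and 16 counts in mutant libraries, against 5, 5 and 1 counts in wild type libraries. Potri.T002066 was the strongest, with 19.7, 22.5 and 19.6 CPM in mutant libraries, against 10.1, 10.3 and 9.76 CPM in wild type libraries.

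Across all 20 genes, mean levels ran between 0.780 and 22.0 CPM in the mutant and between 0.0835 and 10.03 CPM in the wild type. The wild type mean was under 1 CPM for 13 of them and above 5 CPM for 1, Potri.T002066. For 4 of those 13 genes the wild type libraries alone met the level the filter asks for, 0.516 CPM by library total. The other 9 fell below it in at least 1 wild type library and entered the test through their mutant counts. Since the 20 were selected as higher in the mutant in these same libraries, their summed level had to be higher there as well. It was 133, 123 and 135 CPM in mutant libraries, against 31.2, 34.1 and 31.3 CPM in wild type libraries. None of the 20 had a mutant library below a wild type library, as the rule of selection by fold and adjusted p makes likely. Their lengths ran between 228 and 6159 bp.

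**Figure D2:**
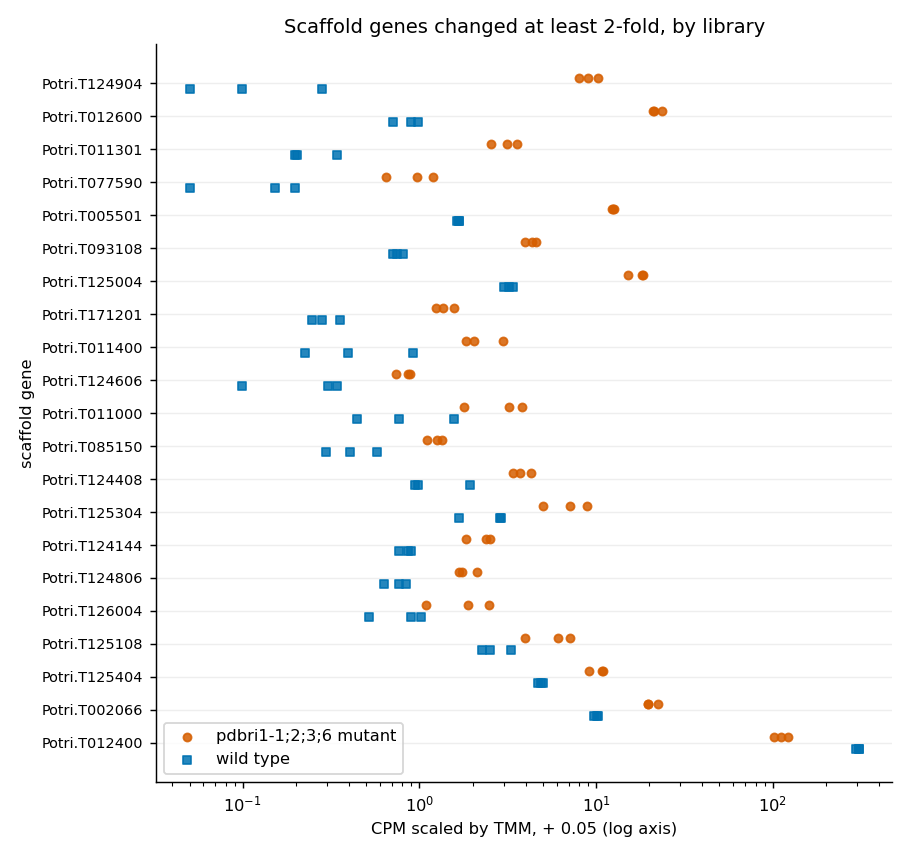
CPM, scaled by TMM with 0.05 added, of the 21 scaffold genes changed at least 2-fold is shown on a log axis, 1 gene a row, with orange circles for the 3 mutant libraries and blue squares for the 3 wild type libraries. In the upper 20 rows the mutant libraries lie to the right of the wild type libraries, and in the row of Potri.T012400 to the left.

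The single fall of at least 2-fold came from a strongly expressed gene. Potri.T012400, of 1340 bp, had 102, 123 and 112 CPM in mutant libraries, against 308, 296 and 308 CPM in wild type libraries. The highest mutant library was far below the lowest wild type library. In FPKM the means were 87.2 ± 7.97 in the mutant and 217 ± 4.55 in the wild type (SD, n = 3 each). The gene fell 2.72-fold (log2 fold change -1.44, SE 0.08, adjusted p = 1.18e-18). It ranked 520 of 27382 tested genes by mean CPM.

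Most scaffold counts came from a few genes. The 5 most counted, Potri.T012700, Potri.T012500, Potri.T012400, Potri.T011200 and Potri.T012200, held 51.2% ± 0.156 of the scaffold counts in the mutant and 53.4% ± 0.754 in the wild type (SD, n = 3 each; exact permutation p = 0.1). Potri.T012700 and Potri.T012500 ranked 79 and 83 of 27382 tested genes by mean CPM.

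Potri.T012700 had the highest level per length, with 367, 363 and 371 FPKM in mutant libraries, against 268, 273 and 279 FPKM in wild type libraries. The genotypes did not overlap. On the CPM scale it rose 1.23-fold (log2 fold change 0.30, SE 0.02, adjusted p = 2.8e-12). Without this gene the difference in scaffold share of library totals was 0.0103 percentage points, against 0.0278 with it.

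Potri.T012500 had 256, 246 and 251 FPKM in mutant libraries, against 212, 220 and 216 FPKM in wild type libraries. With TMM its rise was small (log2 fold change 0.09, SE 0.02, adjusted p = 0.00724), and without wild type replicate 1 it was not called (adjusted p = 0.0638). Potri.T011200, of 435 bp, had 292, 276 and 299 FPKM in mutant libraries, against 315, 284 and 314 FPKM in wild type libraries. Its groups overlapped in FPKM and did not overlap in CPM, where it fell (-0.20, SE 0.06, adjusted p = 5.37e-05). The call was lost with library totals and on the FPKM scale.

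Among the others of the 10 highest in FPKM, Potri.T170700 fell, with 122, 127 and 142 FPKM in mutant libraries, against 166, 157 and 162 FPKM in wild type libraries (log2 fold change of CPM -0.44, SE 0.07, adjusted p = 7.99e-11). Potri.T012800 rose to 55.2 ± 1.23 FPKM in the mutant, against 44.3 ± 1.84 FPKM in the wild type (SD, n = 3 each; log2 fold change of CPM 0.19, adjusted p = 9.04e-05). Potri.T012200 fell by 0.21 on the log2 scale (adjusted p = 2.56e-05, edgeR), a call lost with library totals and on the FPKM scale. Potri.T010600 (log2 fold change 0.02, adjusted p = 0.741), Potri.T085200 (-0.09, adjusted p = 0.246) and Potri.T011201 (-0.19, adjusted p = 0.837) were not called. Potri.T085200 turned to 0.03 with library totals and Potri.T010600 to -0.03 without mutant replicate 2.

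Calls were a smaller share of the scaffold genes than of all tested genes in 3 of 4 classes of level. Tested genes were split into 4 equal classes by the average log2 CPM of edgeR, so mean CPM overlaps slightly between neighbouring classes. In the lowest class 17 of 56 scaffold genes were called (30.4%, against 56.3% of all tested genes in that class). In the next it was 26 of 46 (56.5%, against 60.1%), then 7 of 17 (41.2%, against 64.3%), and in the highest class 12 of 14 (85.7%, against 75.8%). When the classes of all tested genes were weighted as the scaffold genes fall into them, 60.7% would be called, against the 46.6% found. None of these differences was tested.

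The direction of the calls varied with the level, as it did over all tested genes. In the lowest class all 17 called scaffold genes were higher in the mutant, against 71.6% of all calls in that class. In the second class 16 were higher and 10 lower (59.6% of all calls higher), in the third 2 and 5 (45.6%), and in the highest 6 and 6 (35.5%). Rises of at least 2-fold made up 23.2% of the scaffold genes in the lowest class (13 genes, against 28.8% of all tested genes there) and 15.2% in the second (7 genes, against 13.05%). Of these 20 rises, 9 entered the test through their mutant counts, as given above, which limits what the direction among weak genes shows. With the same weighting by level, 18.1% of all tested genes were at least 2-fold higher and 6.35% at least 2-fold lower, beside 15.04% and 0.752% of the scaffold genes.

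**Figure D3:**
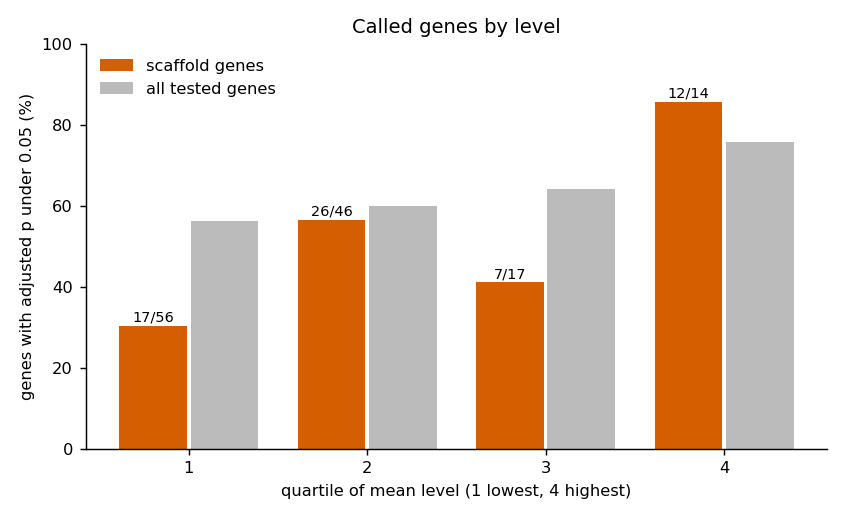
Bars give the percent of genes called at an adjusted p under 0.05 in 4 classes of average log2 CPM, for scaffold genes in orange and all tested genes in grey, and the numbers above are called over tested scaffold genes. The orange bar is below the grey bar in the first 3 classes and above it in the highest, at 85.7% against 75.8%.

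For 65 scaffold genes (48.9%) all 3 mutant libraries lay on one side of all 3 wild type libraries, against 67.1% of all tested genes. Of these, 43 were higher and 22 lower in the mutant. Both a call and separate libraries were found for 58 genes. The other 4 called genes overlapped: Potri.T045700, Potri.T125904, Potri.T125107 and Potri.T124708. Potri.T125904, for example, had 11.1, 13.6 and 13.6 CPM in mutant libraries, against 8.74, 8.11 and 12.8 CPM in wild type libraries, and wild type replicate 3 stood within the mutant range. Its call (log2 fold change 0.36, adjusted p = 0.0357) was lost without mutant replicate 2 or 3 and without wild type replicate 1 or 2, at adjusted p of 0.126, 0.132, 0.130 and 0.126. The same 4 libraries each decided the call of Potri.T124708, with adjusted p of 0.0706, 0.332, 0.0973 and 0.110 without them. The call of Potri.T045700 was lost without mutant replicate 1 and without wild type replicate 1 or 2 (adjusted p of 0.0665, 0.0705 and 0.0677), and, like that of Potri.T125107, with library totals.

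Spread between replicate libraries of the same genotype was wider for scaffold genes than for all tested genes. The replicate SD, pooled within genotypes on the log2(CPM + 0.5) scale, had a median of 0.149 for scaffold genes, 0.194 for genes outside the Potri numbering and 0.0955 for all tested genes. In each of the 4 level classes the 90th percentile of this SD over all tested genes was taken. It was exceeded by 47 of 133 scaffold genes (35.3%), against 9.74% of genes with a chromosome number and 14.6% of genes outside the Potri numbering, a difference that was not tested. Within mutant libraries alone the scaffold count was 40, and within wild type libraries alone 38. With library totals it was 47. On the FPKM scale it was 44 (33.1%), and there genes outside the Potri numbering reached 27.8%. Of these 47 genes 16 were called (34.0%), against 46 of the other 86 tested scaffold genes (53.5%). Among all tested genes the corresponding shares were 65.3% above the percentile and 64.0% below it.

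The most uneven scaffold genes stood among the most uneven of the whole table. Of 20 tested genes with a replicate SD above 0.8, 7 (35.0%) were scaffold genes. Above an SD of 0.5 there were 14 of the 133 scaffold genes (10.5%), against 75 of all 27382 tested genes (0.274%). The libraries in question changed by gene: across the 47 uneven genes, each of the 6 libraries was the highest of its genotype for 12 to 19 genes.

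Potri.T085501 ranked 2 of all tested genes by replicate SD, at 1.67. It had 78, 63 and 55 counts in mutant libraries, against 542, 34 and 23 counts in wild type libraries. Wild type replicate 1 alone stood apart, above every mutant library, while the other wild type libraries were below the mutant. The gene was not called (log2 fold change -1.73, SE 1.36, adjusted p = 0.392). Without wild type replicate 1 its direction turned and it was called (1.20, adjusted p = 9.03e-05).

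Several other uneven genes were named after their values were seen. Potri.T127206 had 17, 5 and 44 counts in mutant libraries, against 59, 17 and 14 counts in wild type libraries. Potri.T001500 had 12, 13 and 14 counts in mutant libraries, against 5, 15 and 67 counts in wild type libraries. The spread of Potri.T127206 was in both genotypes, with wild type replicate 1 again the highest wild type library, and that of Potri.T001500 mostly in the wild type. Potri.T124404 had 7, 19 and 20 counts in mutant libraries, against 6, 35 and 68 counts in wild type libraries. Potri.T124407 had 11, 35 and 5 counts in mutant libraries, against 18, 4 and 1 counts in wild type libraries. The groups overlapped for all 4 genes and none was called. Potri.T011201, of 225 bp, was uneven at a higher level, with 138, 116 and 321 counts in mutant libraries, against 111, 382 and 145 counts in wild type libraries. One library of each genotype was well above the others.

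**Figure D4:**
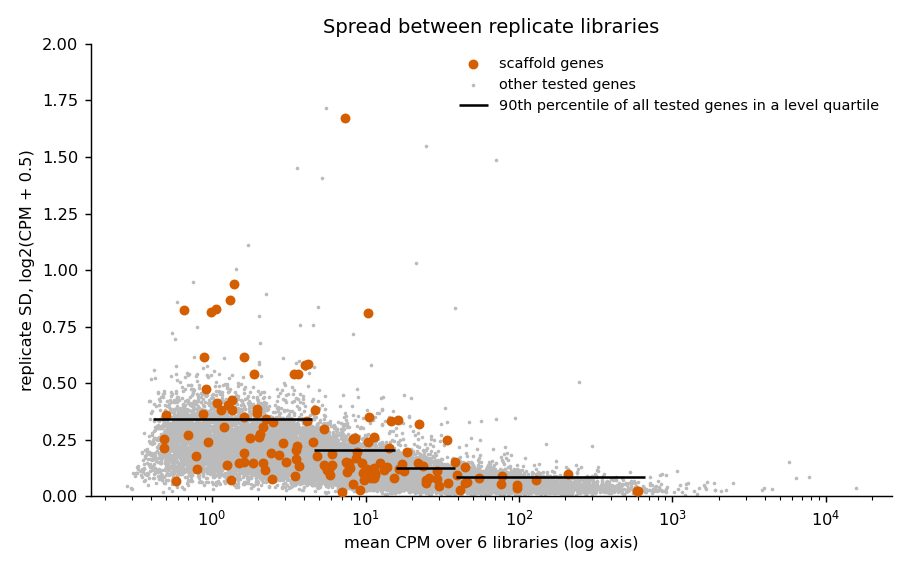
The vertical axis is the SD between replicate libraries of log2(CPM + 0.5), pooled over the genotypes, and the horizontal axis the mean CPM over 6 libraries on a log axis, with orange points for the 133 tested scaffold genes and grey points for other tested genes. Black lines mark the 90th percentile of all tested genes in each of 4 level classes, and 47 orange points lie above them, Potri.T085501 highest at 1.67.

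Scaffold genes stand in the table in 11 stretches, a new one beginning wherever the identifier number drops. The table does not say which scaffold a stretch belongs to, and identifier numbers repeat with steps of 14016 (4 times) and 15518 (9 times), so a number was not read as a position. Calls were found in 9 of the 11 stretches, and the other 2 had no tested gene. The share called ran between 18.2% (2 of 11 genes in the first stretch) and 71.4% (5 of 7 in the last), beside 64.1% of all tested genes. The fourth stretch, Potri.T005501 to Potri.T013566, held most scaffold counts, 114965 in the mutant and 110290 in the wild type, and 11 of its 20 tested genes were called. The sixth, Potri.T001500 to Potri.T126004, had 14 of 27 called (51.9%), with 6 rises of at least 2-fold (13.5% of all tested genes rose as much). In the fifth, Potri.T013544 to Potri.T121301, 3 of 19 tested genes rose and 6 fell, none of them 2-fold. In the tenth, Potri.T124307 to Potri.T125407, 3 of 8 tested genes were called (37.5%) and all 3 fell, while 31.0% of all tested genes were called lower. The call of Potri.T125107 was lost with library totals and on the FPKM scale. That of Potri.T124307 was lost with limma on log2(FPKM + 1) with no filter.

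A run of 7 consecutive identifiers in the fourth stretch, Potri.T012200 to Potri.T012800, was called throughout and in both directions. Of all tested genes 64.1% were called, and 75.8% of those in the highest class of level. Potri.T012200, Potri.T012400, Potri.T012500, Potri.T012700 and Potri.T012800 are in that class. In the order of their numbers the log2 fold changes were -0.21, -0.31, -1.44, 0.09, 4.76, 0.30 and 0.19. The run holds the largest fall among the called scaffold genes, Potri.T012400, and, 2 places on, the second largest rise, Potri.T012600. Between them stands Potri.T012500, one of the most abundant scaffold transcripts. The falls of Potri.T012200 and Potri.T012300 were not called with library totals or on the FPKM scale, and the rise of Potri.T012500 depended on wild type replicate 1 as given above.

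The sixth stretch had rises and falls a few rows apart. Potri.T124904 and Potri.T125004 both rose, by 6.59 and 2.44 on the log2 scale, and Potri.T125304 and Potri.T125404 by 1.50 and 1.10. Next to them Potri.T125504 fell, with 30.6, 31.7 and 30.6 CPM in mutant libraries, against 53.1, 51.9 and 51.0 CPM in wild type libraries (log2 fold change -0.75, SE 0.02, adjusted p = 2.08e-17). Potri.T125604 fell as well, with 6.12, 4.71 and 5.70 CPM in mutant libraries, against 9.38, 10.8 and 10.3 CPM in wild type libraries (-0.88, SE 0.12, adjusted p = 1.64e-08). The genotypes did not overlap for either. Over the whole set there were 124 pairs of tested genes that neighbour each other in the table. Both genes were called in 29 pairs (23.4%), against 42.8% of 26443 such pairs on the numbered chromosomes. Both were called in the same direction in 21 pairs (16.9%, against 24.6%), and both rose at least 2-fold in 4 (3.23%, against 3.02%).

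**Figure D5:**
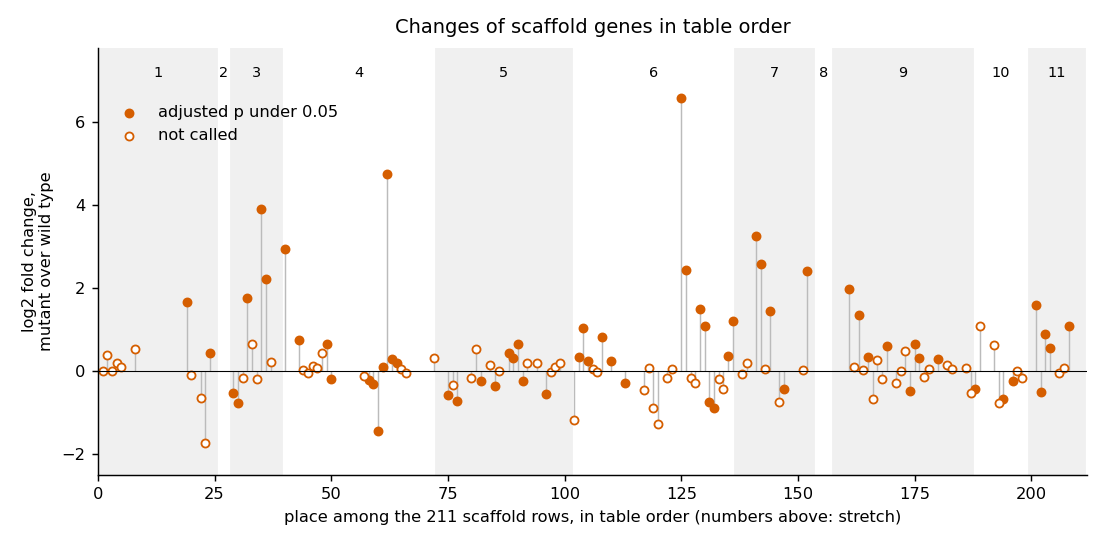
Log2 fold changes of mutant over wild type for the tested scaffold genes are plotted by their place among the 211 scaffold rows in table order, with filled points for called genes and shading for the 11 numbered stretches. The tallest points are Potri.T124904 at 6.59 in stretch 6 and Potri.T012600 at 4.76 in stretch 4, and the lowest called point is Potri.T012400 at -1.44.

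Identifiers that differ by 1 form 6 pairs between the third and the fourth stretch, each pair 16 rows apart in the table. Many identifiers of other stretches also differ by 1, and their lengths can be unlike. Potri.T124806 and Potri.T124807, for example, have 1016 and 2722 bp, so the numbers alone do not show matched genes. In 3 of the 6 pairs the lengths agreed within 15 bp. Whether such pairs are copies of each other was not analysed, since no sequence was used here. Potri.T011100 and Potri.T011101 (2562 and 2555 bp) both had a log2 fold change of 0.64. The first was called (SE 0.08, adjusted p = 1.49e-07) and the second, with a wider spread, was not (SE 0.28, adjusted p = 0.117). Potri.T010900 and Potri.T010901 (2197 and 2185 bp) were not called, at 0.07 and -0.17.

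In other pairs as well, 1 gene was called and its partner was not. Potri.T010800 fell, with 4.93, 5.85 and 6.49 CPM in mutant libraries, against 9.61, 10.05 and 9.71 CPM in wild type libraries (log2 fold change -0.77, adjusted p = 2.94e-07). Its partner Potri.T010801 was at 0.12 and not called (adjusted p = 0.786). Potri.T011000 rose, with 69, 32 and 72 counts in mutant libraries, against 26, 14 and 8 counts in wild type libraries (1.77, SE 0.44, adjusted p = 0.000323). Its partner Potri.T011001 had 29, 32 and 7 counts in mutant libraries, against 15, 2 and 31 counts in wild type libraries, and was not called (0.44, SE 0.66, adjusted p = 0.707). The difference within a pair was not tested. Potri.T011200 and Potri.T011201 (435 and 225 bp), described above, were at -0.20 and -0.19, the first called and the second not. The last pair shares a length of 228 bp. Potri.T011301 rose 15.1-fold, as given above, and Potri.T011300 had 12, 9 and 9 counts in mutant libraries, against 0, 1 and 2 counts in wild type libraries, too few for the test with its filter.

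Rises and falls below 2-fold included genes of moderate level. Potri.T009323, named like the next gene after its values were seen, had 38.5, 37.6 and 37.8 CPM in mutant libraries, against 21.3, 23.3 and 22.5 CPM in wild type libraries (log2 fold change 0.76, SE 0.04, adjusted p = 2.24e-15). Potri.T044400 had 7.64, 6.39 and 5.49 CPM in mutant libraries, against 10.1, 11.2 and 11.2 CPM in wild type libraries (-0.73, SE 0.14, adjusted p = 4.74e-07). Neither gene had overlapping libraries. Potri.T124608, Potri.T126006, Potri.T125406 and Potri.T011100 rose by 0.90, 0.66, 0.61 and 0.64 on the log2 scale, and Potri.T124907 fell by 0.66.

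Calls were more frequent among scaffold genes with an entry in the symbol column. Of 121 such rows 87 were tested and 45 called (51.7%), 14 of them at least 2-fold changed. Of 90 rows without an entry 46 were tested and 17 called (37.0%), 7 of them at least 2-fold changed. Of all tested genes 64.1% were called, with 13.5% at least 2-fold higher and 5.19% at least 2-fold lower. The same split by symbol entry over all tested genes is not given here. The entries repeat the identifier and give no name. The 2 groups were not matched for level, with which the share of calls varied, and the difference was not tested.

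The 48 scaffold genes with counts too low for the test had at most 19 counts in any library. Together they held 403 counts in the mutant and 204 in the wild type. The summed count was higher in the mutant for 27, higher in the wild type for 18 and equal for 3. When all counted genes were tested with no filter, 9 of the 48 were called (18.75%), 8 higher and 1 lower in the mutant. Among all 5603 counted rows below the filter 17.4% were called, 778 higher and 195 lower.

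Among these 9, Potri.T124804 had 7, 10 and 19 counts in mutant libraries, against 0, 0 and 0 counts in wild type libraries. It was at least 11.5-fold higher in the mutant, with the wild type set to the 3 counts that a sum of 0 still allows (lower 95% exact limit of the ratio 8.90, adjusted p = 9.94e-08 with no filter). Potri.T015518 had 4, 6 and 6 counts in mutant libraries, against 0, 0 and 0 counts in wild type libraries, and was at least 5.12-fold higher by the same floor (lower exact limit 3.71, adjusted p = 0.000687). Both were seen in every mutant library and in no wild type library, at few counts. Potri.T084500 was the only one lower in the mutant, with 0, 0 and 0 counts in mutant libraries, against 3, 4 and 3 counts in wild type libraries, at least 3.47-fold lower by that floor (upper exact limit of the ratio of mutant to wild type 0.429, adjusted p = 0.00692). Potri.T011300 had 9.61 times the summed count in the mutant (95% exact interval 2.99 to 49.2). The others were Potri.T084800, Potri.T084701, Potri.T084900, Potri.T085000 and Potri.T124406, with adjusted p-values between 0.00128 and 0.0332. No scaffold gene had at least 10 counts in all libraries of one genotype and 0 in all of the other.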

How the data were processed

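The deposited table gives, per the file headers, raw counts per gene and FPKM for each library. The sources used here do not name an aligner, a counting tool or a strand setting. They name no genome build beyond the version suffix .v4.1 of the scaffold gene identifiers. The authors' FPKM divided a count by library total and 1 fixed length per gene: lengths recovered from 185484 values were whole within 0.01 bp for 100%. All value columns matched a sample by title, and 0 were left unused.

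Counts were tested over the whole table with edgeR 4.0.16 in R 4.3.3 (filterByExpr with a minimum count of 10 and total of 15, TMM factors of 0.957 to 1.05, robust quasi-likelihood F test, genotype only, Benjamini-Hochberg adjustment over 27382 genes, common biological coefficient of variation 3.90%). For shares per library, mutant and wild type were set against each other in a two-sided exact permutation test. On simulated counts with 200 changed genes in each of 3 sets of 27382 genes, the test recovered 39.3% of 1.2-fold, 68.0% of 1.5-fold, 94.0% of 2-fold and 99.3% of 4-fold changes. In the data 64.1% of tested genes were called, so the adjustment over all genes was stricter in the simulation. Its changed genes were drawn from all tested genes, which at the median have higher levels and less spread than scaffold genes. The rates therefore do not give the share of changes found among scaffold genes. Intervals and floors cover counting error only. Replicates differed by more than sampling noise (chi-square per gene 1.84 to 2.62, where noise gives about 1). They are pools that the labels call biological replicates, so p-values rest on the spread between pools.

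Named are the 10 scaffold genes highest in FPKM, every call of at least 2-fold, the 5 smallest adjusted p, and called members of identifier runs with 2 or more such calls. Members and lists were chosen with earlier results of these data known. Alternatives were RLE and library-total scaling, no filter, a filter of 1 CPM in 3 libraries, DESeq2 1.42.0, limma 3.58.1 on log2(FPKM + 1) and log2(FPKM + 0.1) with genes above 0.5 FPKM or all genes, edgeR's glmTreat, a replicate block, the fit without rows outside the Potri numbering, and each library left out. The replicate spread and its alternatives were added after seeing the data.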

Additional observations from a re-analysis of the deposited data

How the results depend on the processing

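Calls of scaffold genes numbered 59 to 68 across scalings, DESeq2, limma, the stricter filter, the replicate block and each library left out. They numbered 77 with no filter, against 62 as reported. The number tested changed with the setting. The share called was 51.1% with the replicate block (63.3% of all tested genes), 42.5% with no filter (56.3%) and 33.9% with DESeq2 (47.5%). In every setting it was below the share of all tested genes, a difference that was not tested. Of the 62 called genes 43 kept the call in every alternative that tested them, 19 lost it in at least 1, and 0 turned direction; all 21 genes changed at least 2-fold kept it in the alternatives that tested them. Calls lost numbered 8 with library totals, 7 with DESeq2, 11 to 13 with limma on FPKM and 3 to 6 with a library left out. Rises of at least 2-fold numbered 20 as reported, 28 with no filter, 25 with DESeq2 and 19 to 25 with a library left out. They numbered 12 with limma on log2(FPKM + 1), with or without its filter, and 11 with glmTreat. The shares of such rises over all tested genes under these alternatives are not given here. Falls of at least 2-fold numbered 2 with no filter, 2 with DESeq2 and 1 to 4 with a library left out. The median log2 fold change was 0.20 with library totals, 0.13 on log2(FPKM + 1), 0.18 on log2(FPKM + 0.1) and 0.069 to 0.13 with a library left out. The cause of these shifts was not tested.

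With the replicate block 68 scaffold genes were called, and falls of at least 2-fold numbered 2. Same-numbered libraries did not deviate together (correlations of -0.02 to -0.005, with 0 libraries closest to their own number), so the numbers do not pair the libraries.

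Among the 82 scaffold genes followed through the alternatives, the direction turned only for genes that were not called. Potri.T085200 was at 0.032 with library totals and 0.033, 0.034 and 0.033 under the limma settings. With 1 library left out, log2 fold changes ran from -2.30 to 1.20 for Potri.T085501, -0.82 to 0.51 for Potri.T011201, -0.027 to 0.042 for Potri.T010600, -0.26 to 0.46 for Potri.T010801, -0.11 to 0.20 for Potri.T010900, -0.10 to 1.28 for Potri.T011001, -1.63 to 0.28 for Potri.T001500, -1.11 to 0.012 for Potri.T155180, -1.56 to 0.51 for Potri.T127206 and -0.065 to 2.72 for Potri.T124407.

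Folds of the weakest genes are limited by depth, since 13 of the 20 large rises had a wild type mean under 1 CPM.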
